A study of Mus musculus with 6 samples.

Results

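miR-210 is a microRNA (miRNA, a short RNA that guides repression of messenger RNAs) made from 1 hairpin precursor, Mir210, which yields the arms miR-210-3p (mmu-miR-210-3p on the arrays) and miR-210-5p (mmu-miR-210-5p). Both arms were taken by name from the array annotation, in which they are 2 of 1881 mouse miRNAs, 4 of 4415 probes and 60 of 56430 spots per array. Sunitinib, a cancer drug that inhibits several receptor tyrosine kinases including those of VEGF and PDGF, was given to male C57BL/6 mice, and left ventricle RNA of 3 sunitinib samples was set against that of 3 control samples from mice given vehicle. The labels used here give no dose, length of treatment or age, and they do not say that each sample is a separate animal, so spreads between samples may in part be technical. Each sample was labelled in Cy3 from 200 ng of total RNA and hybridised alone to an Agilent array.

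miR-210 is known as the miRNA most regularly induced by low oxygen. Hypoxia-inducible factor drives its transcription, and the 3p arm, the guide strand, is known to repress mitochondrial genes such as Iscu, the scaffold protein for iron-sulfur clusters, and so to lower respiration. In heart muscle it has been studied as a miRNA of ischaemia that favours survival of cardiomyocytes and growth of vessels. Target messenger RNAs were not measured on these arrays.

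The mature arms are shown first because the probes read them. In RefSeq (build GRCm38.p6) the hairpin lies on the minus strand of chromosome 7 at chr7:141221384-141221493, overlaps no other listed gene and has Rassf7 and Gm51460 as its neighbours. miR-210-3p lies at chr7:141221407-141221428 and miR-210-5p at chr7:141221445-141221466. In both mature sequences the capitals mark the seed, bases 2 to 8, which pairs with target messenger RNAs. In the hairpin the capitals mark the arms, miR-210-5p at bases 28 to 49 and miR-210-3p at bases 66 to 87.
miR-210-3p: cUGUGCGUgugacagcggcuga
miR-210-5p: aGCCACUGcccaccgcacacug
Mir210 hairpin: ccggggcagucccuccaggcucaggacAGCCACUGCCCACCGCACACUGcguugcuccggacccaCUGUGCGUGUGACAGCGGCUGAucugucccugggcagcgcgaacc
Neither seed occurred at bases 2 to 8 of any other of the 1679 mature mouse miRNAs listed by RefSeq, so no other listed miRNA shares a seed with either arm.

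The 4 probes are shown because the comparison runs probe by probe. Each arm has a pair of probes that differ by 1 base at the end, marked by the capital in the longer probe.
miR-210-3p, 16-base probe: tcagccgctgtcacaC
miR-210-3p, 15-base probe: tcagccgctgtcaca
miR-210-5p, 13-base probe: cagtgtgcggtgG
miR-210-5p, 12-base probe: cagtgtgcggtg
The miR-210-3p probes pair with bases 7 to 22 and 8 to 22 of the mature arm, and the miR-210-5p probes with bases 10 to 22 and 11 to 22, so all of them read the 3′ end and at most the last bases of the seed. Each probe was fully complementary to its own arm and to no other listed mature miRNA. The longest stretch of the probed sequence found in another one was 9 bases for miR-210-3p, in miR-7672-5p, and 8 bases for miR-210-5p. The array files map the longer miR-210-3p probe to chr7:148407355-148407369 and the longer miR-210-5p probe to chr7:148407320-148407331 (mm9), intervals that hold 1 base fewer than the probes and put the 3p arm at the higher coordinate, the reverse of its order in RefSeq.

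All 6 arrays lay on 1 slide, and 234 to 242 miRNAs were well above background on sunitinib arrays, against 237 to 252 on control arrays. An array probe counts here as well above background where at least 50% of its unflagged spots exceeded the background by 13 background SDs. As a check of the labelled tissue, all 6 heart muscle miRNAs of a marker list, such as miR-1a-3p and miR-208a-3p, passed this limit on 6 of 6 arrays. Markers of liver (miR-122-5p), brain (miR-124-3p and miR-9-5p) and epithelium (miR-200c-3p and miR-141-3p) passed it on none, 0 of 6.

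miR-210-3p was higher in sunitinib ventricles on both of its probes, and miR-210-5p was not detected in either group. On the 16-base probe, which was the brighter and stands for the miRNA, scaled signal averaged 94.8, 95.9 and 97.3 intensity units in sunitinib replicates 1 to 3, against 69.9, 75.8 and 77.2 in control replicates 1 to 3. The groups did not overlap, and the sunitinib arrays lay closer together than the control arrays, of which replicate 1 was the lowest. The group means were 96.0 ± 1.23 for sunitinib and 74.3 ± 3.85 for control (SD, n = 3 each). On the log2 scale the values were 6.57, 6.58 and 6.60 in sunitinib and 6.12, 6.24 and 6.26 in control, with means of 6.58 ± 0.018 and 6.21 ± 0.075 (SD, n = 3 each). The log2 difference was 0.37 (SE 0.06), a 1.29-fold higher level. Taking each sunitinib array against each control array, the log2 difference ran from 0.30 to 0.48, or 1.23-fold to 1.39-fold. These are bulk tissue values, in which more cells that express miR-210 and more miR-210 per cell cannot be told apart.

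**Figure D1:**
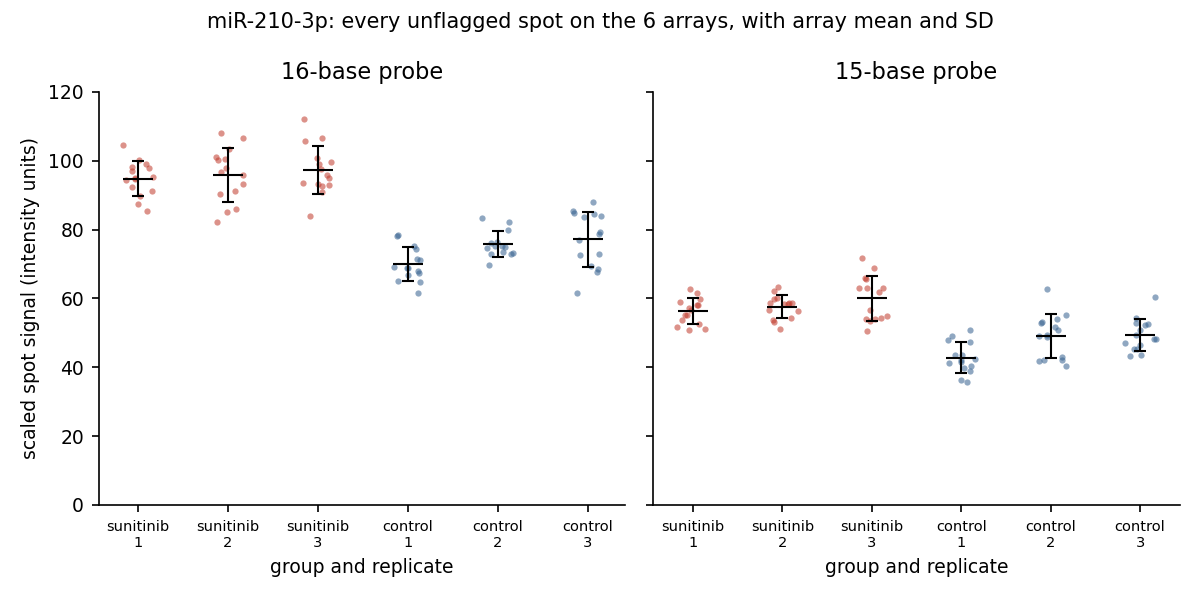
Scaled signal (intensity units, linear axis from 0) of every unflagged spot of the 2 miR-210-3p probes on each array, sunitinib arrays left and control arrays right. Black bars give the mean and SD over spots of 1 array; the sunitinib array means lie above all control array means on both probes.

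The 2 arms were chosen by the sunitinib against control difference of miR-210-3p in these same arrays, so that difference is a description and no test of it is offered. The choosing fit ran over all 237 tested miRNAs (limma with Benjamini-Hochberg adjustment), in which it had the fifth smallest p and was among 8 called at an adjusted p of 0.05, or 3.38% of those tested. Of these, 4 were higher in sunitinib, or 1.69%. By size of log2 difference it ranked 22 of 237. Groups that do not overlap were common on these arrays: 65 of 237 miRNAs, or 27.4%, had none, and 43, or 18.1%, were higher in every sunitinib array.

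**Figure D2:**
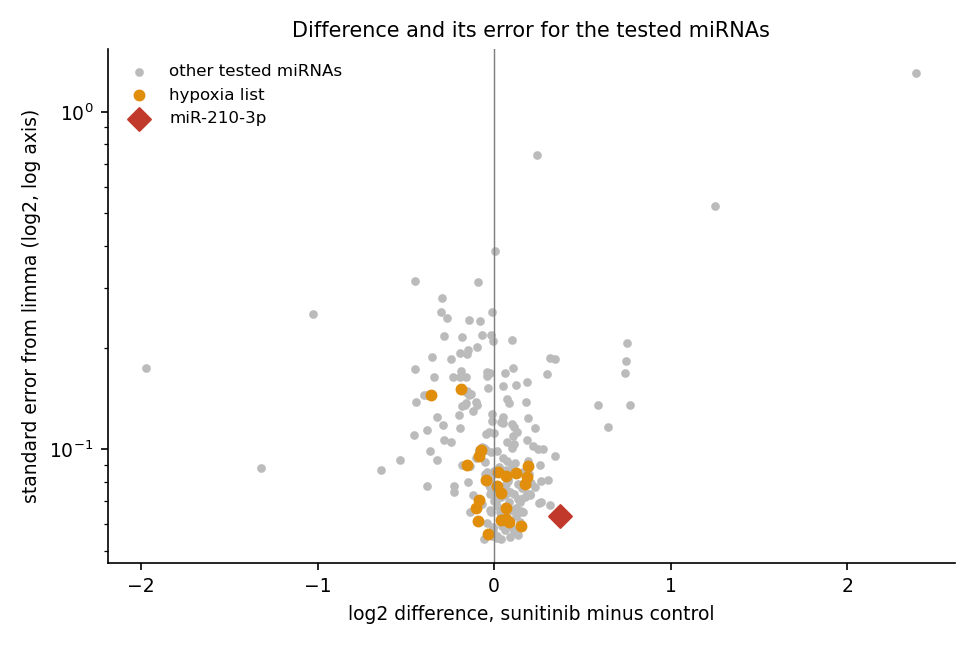
Log2 difference (sunitinib minus control) against its limma standard error (log axis) for the 237 tested miRNAs, with miR-210-3p as a diamond and the hypoxia list in orange. The difference of miR-210-3p, 0.37 with an SE of 0.06, is small among the called miRNAs and has a small error.

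The second probe also separated the groups. Scaled signal of the 15-base probe averaged 56.2, 57.6 and 60.1 intensity units in sunitinib replicates 1 to 3 and 42.8, 49.1 and 49.3 in control replicates 1 to 3. No sunitinib array lay within the control range. The means were 58.0 ± 1.95 in sunitinib and 47.1 ± 3.73 in control (SD, n = 3 each), and the log2 difference was 0.31, or 1.24-fold. The 2 probes read the same molecule and are no replicates of each other. Their log2 differences between groups were 0.07 apart, against a median of 0.05 over the 165 miRNAs that had a second detected probe on every array, where 142 had both probes in the same direction.

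Single spots show how precise each array value is. Each probe was printed in 15 spots per array, and all 15 were well above background for both miR-210-3p probes on all 6 arrays. The coefficient of variation among spots of the 16-base probe ran from 5.32% to 8.14% on sunitinib arrays and from 4.94% to 10.4% on control arrays. Sunitinib spots of this probe ranged from 82.1 to 112.3 and the 44 unflagged control spots from 61.5 to 88.1. Of 45 sunitinib spots, 39 exceeded the brightest unflagged control spot. On control replicate 2, 1 flagged spot was left out, and its signal does not enter this count. For the 15-base probe the ranges were 50.5 to 71.9 in sunitinib and 35.9 to 62.8 in control, and 9 of 45 sunitinib spots exceeded the brightest control spot. Spots of 1 array share its RNA and are not replicates of the treatment.

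The difference was also there before scaling. Unscaled signal of the 16-base probe averaged 106.4, 87.2 and 96.1 intensity units in sunitinib replicates 1 to 3, against 77.3, 79.1 and 66.5 in control replicates 1 to 3. The lowest sunitinib array thus lay above the highest control array, although the spread within each group was wider, with means of 96.6 ± 9.61 and 74.3 ± 6.81 (SD, n = 3 each). In the authors' deposited value table, of unknown scaling and centring, miR-210-3p had log2 values of 6.22, 6.23 and 6.30 in sunitinib and 5.82, 5.95 and 5.98 in control. The log2 difference there was 0.33 and the groups again did not overlap.

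Position on the slide moved with the treatment. Sunitinib replicates 1 and 2 lay in slide row 1, and sunitinib replicate 3 shared row 2 with all 3 control arrays. Within row 2, miR-210-3p of the single sunitinib array exceeded the control mean by 0.39 on the log2 scale, and the 15-base probe by 0.36. The sunitinib arrays of row 1 exceeded the control mean by 0.36 and 0.28 on these probes. The synthetic hybridisation controls dmr_3 and dmr_6 stood at 0.19 and 0.16 above the mean of all arrays in sunitinib replicates 1 and 2 and at -0.17 in sunitinib replicate 3, against -0.06, -0.01 and -0.11 in control replicates 1 to 3 (log2). When arrays were scaled by these controls instead, the log2 difference of miR-210-3p was 0.26 with an SE of 0.19. Scaling by the labelling controls dmr_285 and dmr_31a gave 0.38 with an SE of 0.11.

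miR-210-5p, the passenger strand of the hairpin, was well above background on 0 of 6 arrays on both probes, so no fold is given. Scaled signal of its 13-base probe averaged 0.730, 1.07 and 1.57 intensity units in sunitinib replicates 1 to 3 and 1.50, 2.33 and 1.64 in control replicates 1 to 3. The groups overlapped, and no unflagged spot exceeded 6.12, while 23 of 82 unflagged spots lay below 0 after background subtraction. Of 90 spots of this probe over all arrays, 6 were marked as well above background, and every one of the 6 was also flagged by the scanner software as an outlier. The 12-base probe averaged -0.270, -1.02 and -0.837 in sunitinib and -0.748, 0.314 and -0.074 in control, with 50 of 88 unflagged spots below 0 after background subtraction. In the authors' deposited value table miR-210-5p had 2.28, 2.23 and 2.31 in sunitinib and 2.26, 2.33 and 2.28 in control, close to the table's column medians of 2.20 and its negative control value of 2.27 to 2.34. The arrays thus give no information on whether the 5p arm differed.

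**Figure D3:**
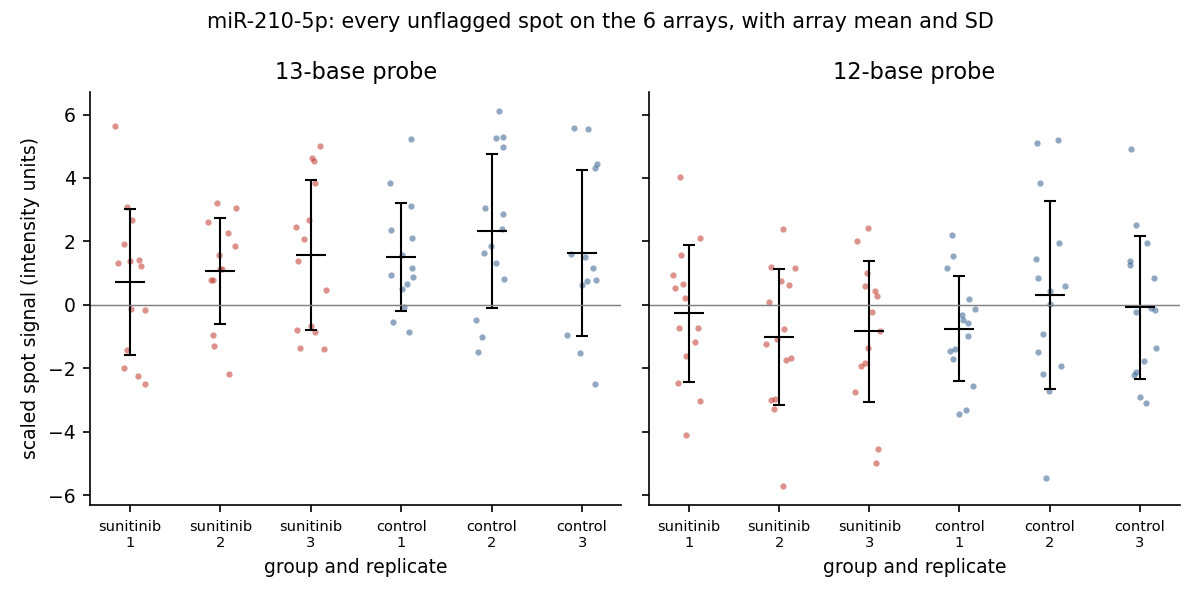
Scaled signal (intensity units, linear axis) of every unflagged spot of the 2 miR-210-5p probes, sunitinib arrays left and control arrays right, with mean and SD over spots of 1 array. Spots scatter around 0 on all 6 arrays and none exceeds 6.12.

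Other miRNAs described as regulated by low oxygen were taken as a list of 28, all present on the arrays, of which 23 were tested. By the same limma fit, 0 were called higher and 0 lower, against 3.38% of all tested miRNAs, and 2 of 23 had an unadjusted p under 0.05, against 45 of 237, or 19%, of all tested. Of the 23, 13 had a difference above 0 and 10 below 0. No direction was assigned to the listed miRNAs, so opposite changes could cancel in these counts and in the median. The median log2 difference was 0.022, against 0.019 over all tested miRNAs, and the differences ran from -0.36 to 0.19. The 0.37 of miR-210-3p lay above this range, but miR-210-3p was chosen by that difference, so its place carries no weight. In size, miR-503-5p at -0.36 came close to it. Groups did not overlap for 4 of the 23, 3 of them higher in sunitinib, against 27.4% of all tested. The remaining 5, miR-322-3p, miR-191-5p, miR-687, miR-429-3p and miR-200b-3p, were detected on 0 of 6 arrays.

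The smallest unadjusted p in the list belonged to miR-155-5p, a miRNA of activated immune cells. Its log2 values were 6.80, 6.78 and 6.73 in sunitinib and 6.57, 6.66 and 6.62 in control, a difference of 0.15 (SE 0.06, limma adjusted p = 0.246). The groups did not overlap, but the difference did not pass. miR-322-5p and miR-503-5p are made from neighbouring hairpins of 1 cluster and share the miR-15 family's role in restraining the cell cycle. miR-322-5p had 9.44, 9.17 and 9.33 in sunitinib and 9.10, 9.16 and 9.13 in control, a difference of 0.18 (SE 0.08, limma adjusted p = 0.297). Its groups did not overlap, but only narrowly, with 9.17 as the lowest sunitinib and 9.16 as the highest control value. miR-503-5p had 3.80, 3.84 and 4.01 in sunitinib and 3.98, 4.22 and 4.52 in control, a difference of -0.36 (SE 0.14, limma adjusted p = 0.254). The cluster's 2 tested miRNAs thus had differences of opposite sign, neither past the threshold.

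miR-23a-3p, of a cluster with miR-24 and miR-27a that acts in muscle growth and in vessels, had 12.49, 12.34 and 12.24 in sunitinib and 12.20, 12.21 and 12.15 in control. The difference was 0.17 with an SE of 0.08 (limma adjusted p = 0.297), and the groups did not overlap. miR-26a-5p, which restrains cell growth, had the highest difference of the list, 0.19 (SE 0.09, limma adjusted p = 0.297), with overlapping groups. The other named members were below 0: miR-181a-5p at -0.15, miR-181c-5p at -0.10 and miR-204-5p at -0.09, with limma adjusted p of 0.407, 0.454 and 0.461. miR-181c-5p was lower in every sunitinib array than in any control array.

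**Figure D4:**
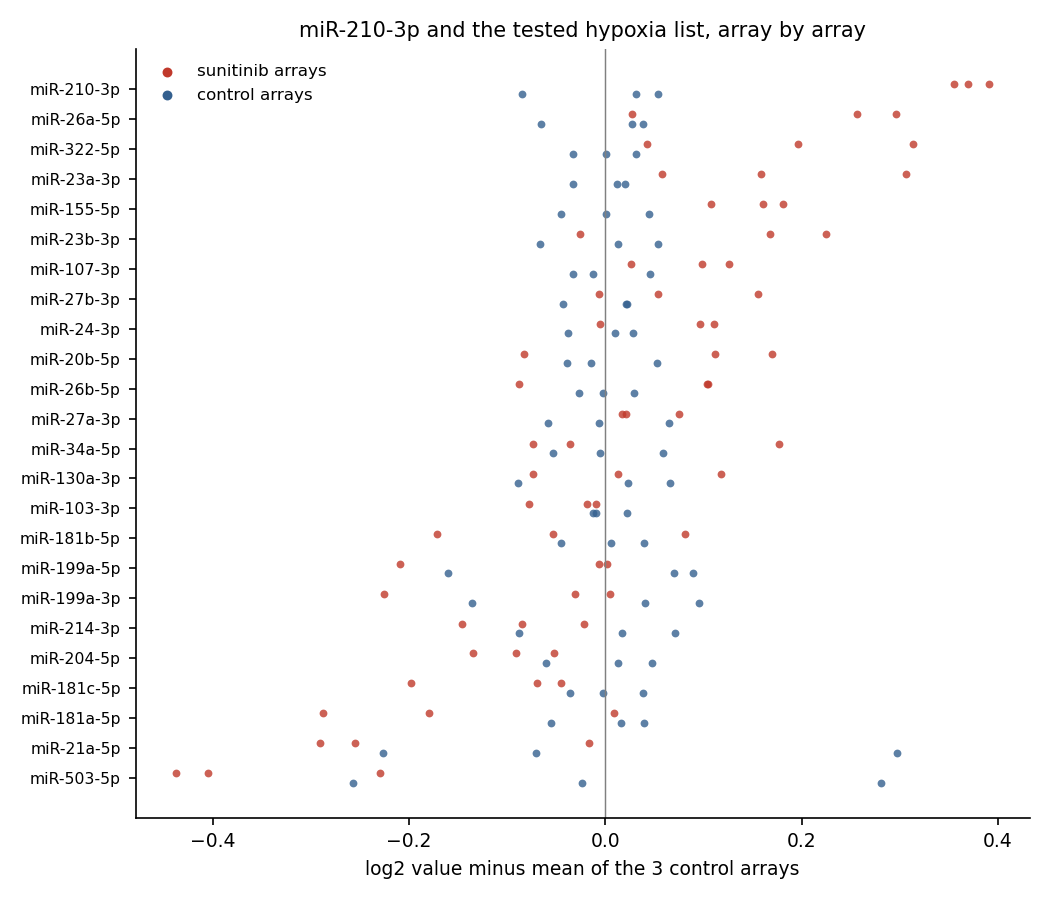
Log2 value minus the mean of the 3 control arrays for miR-210-3p (top) and the 23 tested miRNAs of the hypoxia list, ordered by difference, with 1 point per array. The 3 sunitinib points of miR-210-3p lie near 0.37; those of the listed miRNAs mostly mix with the control points.

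The miRNAs whose log2 values over the 6 arrays ran most like those of miR-210-3p, among 236 others tested, were miR-139-5p (Pearson r = 0.954), miR-2861 (0.934), miR-193b-3p (0.932), miR-155-5p (0.929) and miR-99a-5p (0.923). Their own log2 differences between sunitinib and control were 0.32, 0.37, 0.26, 0.15 and 0.09, and of the 5 miR-2861 passed the threshold (limma adjusted p = 0.037). The difference between the groups enters these r values, and over all 236 the median r was 0.15. With each value taken as its deviation from its group mean, the closest were miR-219a-5p (r = 0.904), miR-503-5p (0.894), miR-3963 (0.889), miR-29c-3p (0.879) and miR-19a-3p (0.853), over a median of 0.18. None of these 5 passed the threshold, and their log2 differences ran from -0.36 to 0.12. These correlations rest on 6 arrays that share a slide and are descriptions only.

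Markers of other cells were set beside the miR-210-3p difference, since bulk ventricle holds several cell types. Leukocyte miRNAs, 5 in the list and 4 of them tested, did not run one way. miR-223-3p, of myeloid cells, and miR-142a-3p, of blood cells in general, fell, with log2 differences of -1.32 (SE 0.09, limma adjusted p = 0.00086) and -0.64 (SE 0.09, limma adjusted p = 0.020), so 2 of 4 were called lower, against 4 of 237, or 1.69%, of all tested. The other tested members had differences above 0 that did not pass: miR-150-5p, of lymphocytes, 0.35 (SE 0.18, limma adjusted p = 0.359) with overlapping groups, and miR-155-5p the 0.15 given above, with groups that did not overlap. miR-142a-5p was detected on 0 of 6 arrays. The summed scaled signal of the list ran from 426 to 504 in sunitinib and from 638 to 708 in control, a sum that was lower in sunitinib although 2 of the 4 tested members had differences above 0. None of the 6 heart muscle, 4 erythroid, 2 endothelial and 2 mural miRNAs was called, against 3.38% of all tested. Not being called does not mean unchanged. miR-208b-3p, of heart muscle, had a log2 difference of 1.25 (SE 0.53, limma adjusted p = 0.263) with overlapping groups. miR-145a-5p, of mural cells, had -0.23 (SE 0.08, limma adjusted p = 0.211) and was lower in every sunitinib array than in any control array. The part of cell makeup in the miR-210-3p difference was not tested.

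Across the 25 other processing settings tried, the difference of miR-210-3p was above 0 in all of them and ran from 0.23 to 0.40, while it was called in 8. All settings drew on the arrays that chose the member, so these counts are a description. The detection filters, the floor of 4, the trend and robust options of eBayes and the replicate block could not change this difference, which stayed at 0.37. The lowest value came with the normexp background correction, which adds 50 intensity units to signals of this size and so shrinks ratios by construction.

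**Figure D5:**
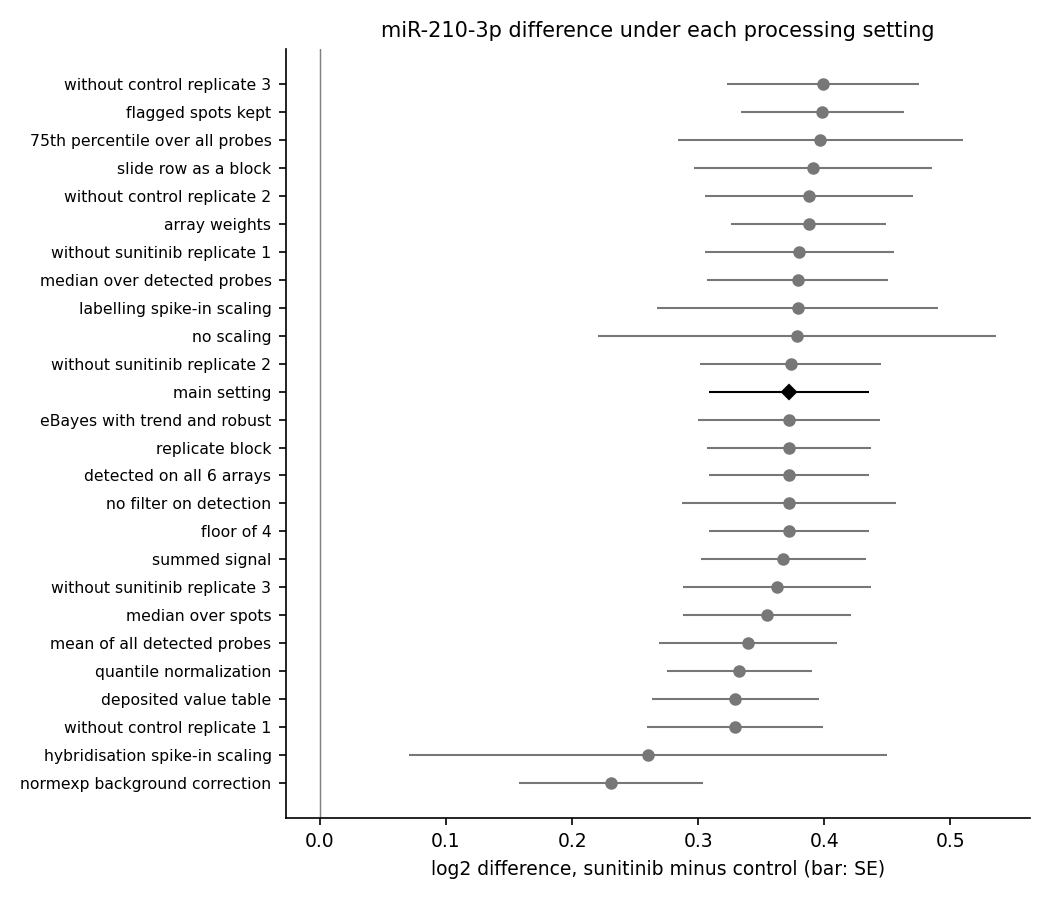
Log2 difference of miR-210-3p (sunitinib minus control) with its limma standard error under the main setting (black diamond) and 25 alternatives (grey). Values run from 0.23 with normexp to 0.40, and all lie above 0.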

How the data were processed

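Spot intensity was measured on 6 one-colour arrays, and the deposited scanner files hold it on a linear scale. Per the file headers, Agilent Feature Extraction (version 10.7.1.1, design build mm9; version 10.7 per the submitters' processing notes) had subtracted the background. The authors' deposited value table holds log2 values of unstated scaling; its columns matched their own arrays best (Pearson r 0.919 to 0.954 over 237 miRNAs). Control spots and outlier-flagged spots were left out. Signals were scaled to the 75th percentile of log2 signal over 393 probes well above background on all arrays, with a floor of 1, then log2-transformed; spots of a probe were averaged. The brightest probe stood for a miRNA. A miRNA detected on every array of sunitinib or of control, 237 in all, was tested with limma 3.58.1 (lmFit, eBayes) in R 4.3.3, Benjamini-Hochberg threshold 0.05; the fit was tested on simulated data. No probe was saturated. The number of arrays limits the precision. Alternatives covered background, scaling, probe summary, filter, floor, variance model, blocks and leaving out each array. The 8 list members named had the smallest p; 5 miRNAs per likeness measure were named by highest r. Members and lists were chosen with earlier results of these data known. Sequences are RefSeq's or, for probes, the array files'.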

Additional observations from a re-analysis of the deposited data

How the results depend on the processing

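Of 25 alternatives, 2 of them (spike-in scaling) chosen after seeing the data, the miR-210-3p difference of 0.37 moved beyond the replicate spread in 2, to 0.23 with normexp (0.16 for the 15-base probe) and 0.26 with hybridisation spike-ins (0.19 for the 15-base probe). The limma adjusted p of the choosing fit, 0.037, is no test of the miR-210-3p difference. Over these alternatives it ran from 0.025 to 0.721 and lay above 0.05 in 17, among them every fit without 1 array. Without each array in turn the difference ran from 0.33 to 0.40, and that of the 15-base probe from 0.24 to 0.34. Against 4 higher and 4 lower calls, there were 2 and 2 after normexp, 1 and 1 from summed spot signal, 0 and 2 with labelling spike-ins and 0 and 1 with slide row as a block; the higher calls numbered 0 with quantile normalization, 1 without scaling and 0 without a filter, and the lower calls 7 with array weights. Leaving out 1 array gave 0 to 5 higher and 2 to 3 lower calls. With the replicate number as a block there were 0 higher and 2 lower calls, and miR-210-3p had 0.37 (limma adjusted p = 0.151). Same-numbered samples deviated together with r = 0.18, 0.22 and -0.06, and differently numbered ones with r from -0.31 to 0.25. With 3 samples per group, these r values cannot decide whether the numbers pair the samples. No hypoxia list member was called in any alternative. The list's median of 0.022 became -0.017 in the deposited table, 0.066 with flagged spots kept, -0.00625 with slide row as a block and -0.090 with hybridisation spike-ins, and ran from -0.00398 to 0.046 without 1 array. miR-181a-5p turned to 0.00872 with slide row as a block. Of the 5 miRNAs most like miR-210-3p, 1 to 5 stayed among the 5 in 19 alternatives. The causes were not tested, and the added offset of normexp was not varied. miR-210-5p lay too near background to be measured.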

Other observations

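The array files' genome positions depart from RefSeq in the order of the arms, and not for Mir210 alone. Among hairpins with both arms mapped close together on 1 chromosome, the files put the 3p arm at the higher coordinate in 80 of 80 on the minus strand and in 126 of 126 on the plus strand. RefSeq has the 3p arm higher in 0 of the same 80 and in 126 of the 126. Base positions given by the files for arms of minus-strand miRNAs, miR-210 included, should be read with that in mind, and the cause was not tested. The probe sequences, which carry the measurement, matched the RefSeq arms in full for all 4 miR-210 probes.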
